A study of Drosophila melanogaster with 15 samples.

Results

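The transcript levels of 7 genes were followed across RNAi against the DOMINO and TIP60 proteins and against the histone variant H2A.V in Kc167 cells, an embryonic cell line of D. melanogaster. The genes are E(Pc), Nipped-A, Ing3, Eaf6, Brd8, MrgBP and MRG15. They were chosen by name as subunits of the acetyltransferase part of the DOM-A complex other than dom and Tip60 themselves. Brd8, MrgBP and MRG15 are also listed by the study with DOM-B, and Eaf6 was included for its counterparts in yeast and human cells, since the list names no fly protein there. All 7 were found among the 17481 gene identifiers counted, and all 7 were among the 11424 genes that passed the filter on low counts. RNA-seq libraries came from 5 groups with 3 biological replicates each. The dsRNA of the CTRL group was directed at GST (replicates 1 and 3) or GFP (replicate 2), so a difference between these controls cannot be told apart from one between replicates. The other groups received dsRNA against H2A.V, TIP60 or one of the isoforms DOM-A and DOM-B. Before RNA extraction, D. virilis cells were added to every sample at 1 cell for 2 Kc167 cells, and D. melanogaster counts were divided by size factors computed from the D. virilis reads. The values below are these normalized counts. The same number of Kc167 cells was taken for each library, and their RNA was extracted together. Fewer cells of a type and less RNA per cell therefore cannot be told apart in these values.

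The TIP60 complex, the counterpart of the NuA4 complex of yeast, transfers acetyl groups to histone tails, and in flies its large scaffold DOM-A is also an ATPase of the SWR1 family. E(Pc) tethers the acetyltransferase module, as its homologue Epl1 does in yeast, and Nipped-A, the homologue of Tra1 and TRRAP, is the largest subunit and is known from yeast and human cells as the surface that activators bind. Ing3 carries a PHD finger that binds methylated histone H3 tails, Brd8 carries a bromodomain, and MRG15 carries a chromodomain and is joined to the complex by MrgBP, the counterpart of yeast Eaf7. Eaf6 is a small subunit that the homologous complexes of yeast and human cells share with other acetyltransferases.

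After H2A.V RNAi, the chromodomain gene MRG15 fell to 55.1% of its CTRL level and its partner MrgBP to 51.3%. No member passed the test after RNAi against DOM-A, DOM-B or TIP60. Of all genes tested, 12.7% passed it after H2A.V RNAi, and 19.4%, 5.07% and 13.3% after DOM-A, DOM-B and TIP60 RNAi. The call of MRG15 was kept in all 15 other fits tried, and that of MrgBP in 9 of them. MRG15 was also lower after H2A.V RNAi than after each of the other 3 knock-downs, although some settings ended these calls. These statements rest on the quasi-likelihood test of edgeR, with p-values adjusted by the Benjamini-Hochberg method over 11424 genes, and a gene is said to have risen or fallen when its adjusted p-value was under 0.01. Adjusted p-values below are from this test, and ± is the SD over 3 replicates.

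The targeted genes were read first. Tip60 lay between 35.0 and 47.5 normalized counts after TIP60 RNAi and between 245 and 279 in CTRL. His2Av, the gene of H2A.V, was 224 and 277 in H2A.V replicates 1 and 3 but 1958 in replicate 2, against 10448 to 12354 in CTRL, so the second H2A.V library kept more of the targeted transcript than the others. The members called after H2A.V RNAi are given with and without it. His2Av also lay below all CTRL libraries after DOM-A RNAi (7290 to 7556) and TIP60 RNAi (6703 to 7868). Its log2 fold-changes there were −0.61 and −0.58 and were not called (adjusted p = 0.369 and 0.423). Upon DOM-B RNAi His2Av had 8834 to 11408 and overlapped with CTRL. Tip60 itself was 166, 189 and 168 after H2A.V RNAi, below all CTRL libraries, with a log2 fold-change of −0.59 (adjusted p = 0.0096). This call on Tip60 was kept in 4 of 9 other settings and in 0 of 6 fits with a library left out (adjusted p = 0.0114 to 0.0516). The reads on dom pool the transcripts of DOM-A and DOM-B, so that its gene count does not check either of these knock-downs. After TIP60 RNAi dom had 6618 to 8848 normalized counts, above the 4252 to 5175 of CTRL. Its log2 fold-change there was 0.80 (adjusted p = 0.000831). This call on dom was kept in 9 of 9 other settings and in 6 of 6 fits with a library left out. Libraries held 8662976 to 14679536 reads on D. melanogaster genes. The blood cell genes Hml, with 8195 to 47080 normalized counts, and srp, with 2921 to 5844, were present in every library. Of 4 fat body and follicle genes, Yp1, Lsp2 and Fbp1 did not exceed 1.06, 1.87 and 2.84, and Yp2 ran from 1.89 to 15.04. The summed level of 4 neuron markers, mostly brp and elav, was 791 to 1110 in CTRL and 790 to 1488 after H2A.V RNAi. It was 560.5 to 729.8 after DOM-A RNAi, 444.3 to 683.5 after TIP60 RNAi and 1229 to 1254 upon DOM-B RNAi. The sum of 4 muscle markers, mostly Tm1, was 8156 to 9044 in CTRL and 5730 to 8535 after H2A.V RNAi. Their sum was 4780 to 6096 after DOM-A RNAi, 5186 to 5858 after TIP60 RNAi and 6252 to 7372 upon DOM-B RNAi. After H2A.V RNAi 2 of these 4 had positive and 2 negative log2 fold-changes, and Act57B rose (1.06). In all groups 3 male cell markers, mostly msl-2, summed to between 106 and 196, and roX1 and roX2 did not exceed 13.24 and 9.61. The summed level of 9 blood cell markers, of which Hml had the highest CTRL mean (13950), was 23390 to 29260 in CTRL. It was 84700 to 101000 after DOM-A RNAi and 30990 to 97770 after TIP60 RNAi. Upon DOM-B RNAi it was 46480 to 59150, and after H2A.V RNAi 18440 to 38520. Of the 9, 8 had a positive and 1 a negative log2 fold-change after each of DOM-A, DOM-B and TIP60 RNAi. After H2A.V RNAi 5 were positive and 4 negative, and Ppn (1.40) and Pxn (1.35) rose. The part of these cell markers in the levels of the members was not tested.

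The dsRNA that lowered His2Av is the perturbation on which the changes of MRG15 and MrgBP rest. The study lists a pair of templates for it. Their gene-specific primer sequences, printed in capitals and without the polymerase promoter tail, come from His2Av on 3R. The sources used here do not say which template each library received.
H2Av_RNAi_f1: CGAAACCGAATTCCGTAGAA
H2Av_RNAi_r1: CAATCGATTTTTCTGCTGCC
H2Av_RNAi_f2: GAAGGGCAACGTCATTCTGT
H2Av_RNAi_r2: GTGAGTGTTGGGGAGATGCT

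The genes lie on different chromosomes (BDGP6 assembly, the same as dm6). E(Pc) (FBgn0000581) occupies positions 11452043 to 11465270 of the plus strand of 2R and Nipped-A (FBgn0053554) positions 5177965 to 5251022 of the minus strand of 2R. MrgBP (FBgn0033341) lies at 8900566 to 8901375 on the minus strand of 2R. Ing3 (FBgn0030945) lies on X, minus strand, 18650718 to 18653091, and Eaf6 (FBgn0035624) on 3L, minus strand, 5607162 to 5608300. The last pair is on 3R, with Brd8 (FBgn0039654) at 29223485 to 29226276 of the plus strand and MRG15 (FBgn0027378) at 15276440 to 15278109 of the minus strand. Nipped-A has 11519 nt of exonic sequence within 73058 nt of gene, whereas Brd8 is a single exon of 2792 nt and MrgBP has 758 nt of exonic sequence. Exons of 4 members overlap those of a neighbouring gene, which is described with each gene. Between 82 reads (Eaf6) and 6573 reads (Nipped-A) were counted on a member in one library.

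In CTRL cells, the members fell into a higher and a lower set when their normalized counts were divided by exonic length. Nipped-A had 393 ± 41.6 normalized counts per kb (SD, n = 3), MrgBP 366 ± 86.9 and MRG15 337 ± 14.1. The replicates of these 3 genes overlapped. E(Pc) followed with 261 ± 11.99 per kb. Ing3 with 137 ± 6.38, Brd8 with 122 ± 13.9 and Eaf6 with 118 ± 8.65 per kb formed the lower set, and the replicates of neighbours in this order overlapped. On the same scale Tip60 had 109 ± 6.97 per kb and dom 355 ± 37.5. The level of Tip60 was thus near those of the lower set and the level of dom lay within the higher set. Counts from a 50 nt single read say nothing about the amounts of protein in the complex. The place of E(Pc) depended on the length used. Per kb of coding sequence it had 451 normalized counts, against 460 for MrgBP, 398 for Nipped-A and 396 for MRG15, since 10946 nt of exonic sequence are annotated for E(Pc) but 6326 nt of coding sequence.

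**Figure D1:**
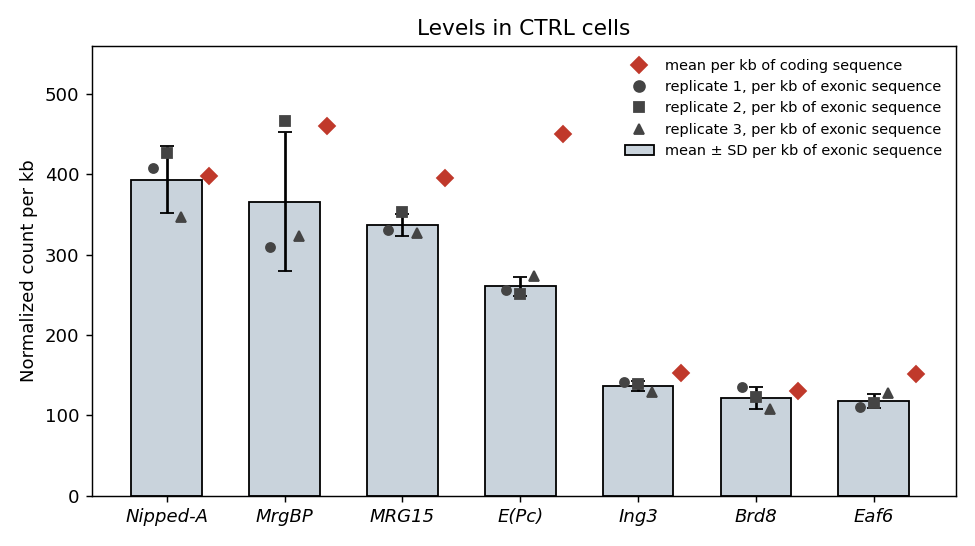
Normalized counts per kb in CTRL cells for the 7 subunit genes. Bars and error bars give the mean and SD of 3 replicates per kb of exonic sequence, small symbols the replicates and diamonds the mean per kb of coding sequence. Nipped-A, MrgBP and MRG15 lie between 337 and 393, Ing3, Brd8 and Eaf6 between 118 and 137, and E(Pc) moves from 261 to 451 with the length used.

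The share of members that changed was compared with that of all genes. After DOM-A RNAi, 0 of 7 members passed edgeR's test, with 19.4% of all tested genes called. Of the 7, 1 had an unadjusted p-value under 0.05, and DESeq2 called 0. After DOM-B RNAi, 0 members were called against a background of 5.07%, 0 had an unadjusted p-value under 0.05 and DESeq2 called 0. After TIP60 RNAi, 0 members were called by either tool against a background of 13.3%, and 1 had an unadjusted p-value under 0.05. After H2A.V RNAi, 2 members were called, both lower (3 by DESeq2, with Brd8 as the third), when 12.7% of all genes were called and 11.5% were called as lower. All 7 members had a negative log2 fold-change in that comparison (6 with TMM normalization on the D. melanogaster counts, where Eaf6 had 0.03). Among the 11424 genes tested, 7506 were negative there too. Of the members, 4 of 7 did not overlap with CTRL, which held for 29.4% of all genes in the lower direction.

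The median log2 fold-change of the members was 0.15 after DOM-A RNAi, −0.15 upon DOM-B RNAi, 0.14 after TIP60 RNAi and −0.38 after H2A.V RNAi. Over all genes tested the medians were 0.03, 0.06, −0.04 and −0.22. The median of all genes after H2A.V RNAi depends on the scaling, since it was 0.02 with TMM normalization on the D. melanogaster counts. The log2 ratio of D. virilis to D. melanogaster size factors was 0.21 ± 0.11 (SD, n = 3) after H2A.V RNAi and −0.09 ± 0.02 in CTRL. This is a difference of 0.30 with p = 0.1 by an exact two-sided permutation test, the smallest p-value that 3 against 3 libraries allow. For the other groups, the difference from CTRL was 0.06 after DOM-A RNAi (p = 0.2), 0.00 upon DOM-B RNAi (p = 1.0) and 0.11 after TIP60 RNAi (p = 0.1), by the same exact test. After Benjamini-Hochberg adjustment over the 4 comparisons the lowest p-value of this exact test was 0.2.

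**Figure D2:**
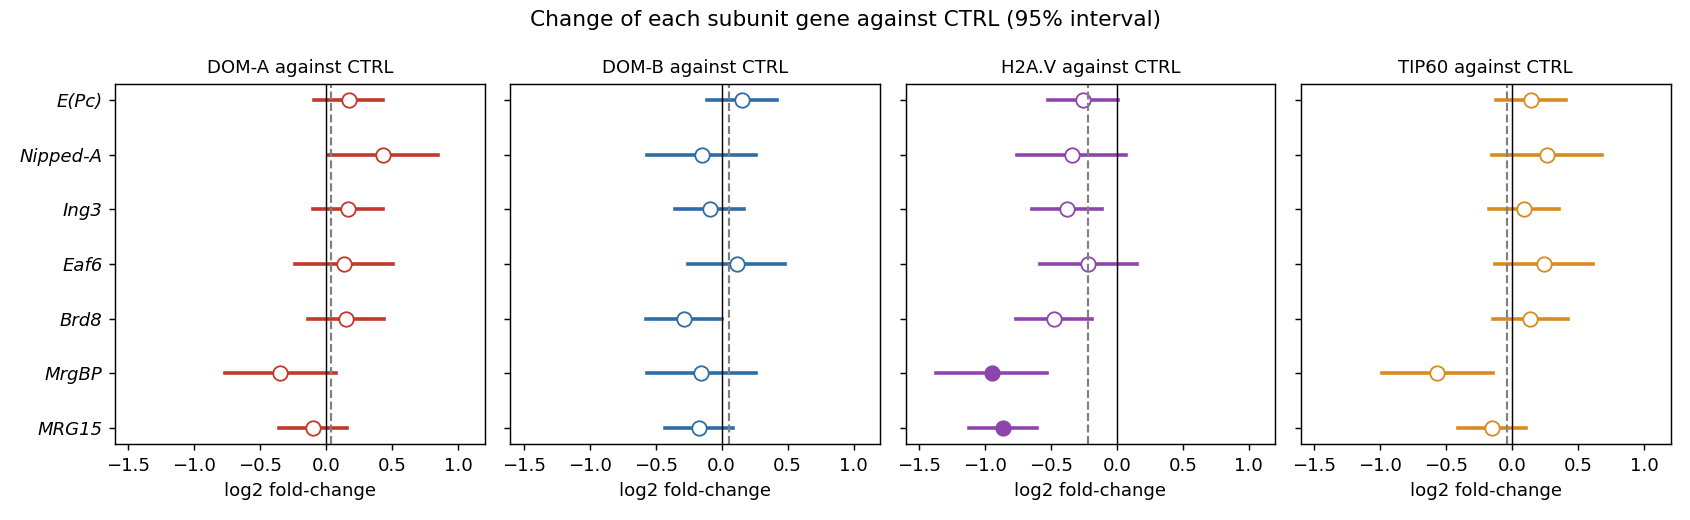
Log2 fold-change of each subunit gene in the 4 knock-downs against CTRL, with 95% intervals from edgeR. Filled points have an adjusted p-value under 0.01, the dashed line marks the median of all genes tested and the solid line marks 0. Filled points occur for MrgBP (−0.95) and MRG15 (−0.86) after H2A.V RNAi, and in no other panel.

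MRG15, the chromodomain subunit, had the lowest adjusted p-value of the members after H2A.V RNAi. Its normalized counts were 500, 534 and 494 in CTRL replicates 1 to 3 and 289, 257 and 296 after H2A.V RNAi. It had 499, 478 and 450 after DOM-A RNAi, 470, 503 and 387 upon DOM-B RNAi, and 464, 436 and 474 after TIP60 RNAi. The 3 H2A.V libraries thus lay below all 12 others, and the remaining groups lay within the range of 387 to 534. Ordered by level, the groups were CTRL, DOM-A, TIP60, DOM-B and H2A.V. Of the neighbours in this order, DOM-B and H2A.V differed beyond their spread, and the others did not. The log2 fold-change of H2A.V RNAi against CTRL was −0.86, with a standard error of 0.12 and adjusted p = 0.000268. In the single replicates it was −0.79, −1.05 and −0.74. The largest fall was thus in H2A.V replicate 2, where His2Av was least reduced. That library also had the highest log2 ratio of D. virilis to D. melanogaster size factors (0.30). The part of the scaling in this was not tested. Without H2A.V replicate 2, the library with more remaining His2Av, the log2 fold-change was −0.78 (adjusted p = 0.00189). With TMM normalization on the D. melanogaster counts it was −0.61 (adjusted p = 0.00123).

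MRG15 was also compared between the knock-downs. Relative to H2A.V RNAi it was higher by a log2 fold-change of 0.76 after DOM-A RNAi, 0.69 upon DOM-B RNAi and 0.71 after TIP60 RNAi. The adjusted p-values were 0.000224, 0.00175 and 0.00049, and the groups did not overlap in any of these comparisons. The 3 comparisons share the H2A.V libraries. Without H2A.V replicate 2 the log2 fold-changes were 0.67, 0.60 and 0.62, with adjusted p = 0.0017, 0.0131 and 0.00337, so that the call against DOM-B RNAi was lost. The exons of MRG15 overlap those of l(3)neo43 over 129 nt on the same strand, where reads assigned to both genes were not counted. l(3)neo43 itself had 67.8 to 73.4 normalized counts after H2A.V RNAi and 99.2 to 143.9 in CTRL. Its log2 fold-change was −0.83 (adjusted p = 0.00598). The part of this overlap in the result on MRG15 was not tested. Another neighbour, CG4338, overlaps 35 nt of exonic sequence on the opposite strand, and its log2 fold-change after H2A.V RNAi was −0.15. On the opposite strand of MRG15, 35 to 44 normalized reads were found after H2A.V RNAi and 43 to 57 in CTRL.

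MrgBP, which links MRG15 to the complex, had 234, 353 and 245 normalized counts in CTRL and 126, 118 and 183 after H2A.V RNAi. The groups did not overlap, although CTRL replicate 2 was well above the other CTRL libraries. After TIP60 RNAi it had 179, 178 and 197 counts, after DOM-A RNAi 189, 252 and 210, and upon DOM-B RNAi 242, 296 and 206. The means thus ran in the order CTRL, DOM-B, DOM-A, TIP60 and H2A.V, and no neighbours in this order differed at 0.01. For H2A.V RNAi against CTRL the log2 fold-change was −0.95 (standard error 0.20, adjusted p = 0.00362), with −0.89, −1.57 and −0.42 in the single replicates. The third replicate pair thus moved least, and the second, with more remaining His2Av, moved most. The call was lost without CTRL replicate 1, CTRL replicate 2, H2A.V replicate 1 or H2A.V replicate 2, and in the last case the log2 fold-change was −0.73 (adjusted p = 0.0215). It was also lost with TMM normalization on the D. melanogaster counts, where the log2 fold-change was −0.71, and with total D. virilis counts, where it was −0.75.

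After TIP60 RNAi, the log2 fold-change of MrgBP was −0.57 with adjusted p = 0.0492, and the 3 libraries lay below all CTRL libraries. It did not pass 0.01. After DOM-A RNAi it was −0.35 (95% interval −0.77 to 0.07) and upon DOM-B RNAi −0.15 (95% interval −0.57 to 0.26). MrgBP ends in an exonic overlap of 52 nt with CG13751 on the opposite strand. CG13751 had 494 to 742 normalized counts in CTRL and 323 to 356 after H2A.V RNAi, where its log2 fold-change was −0.87 (adjusted p = 0.00142). It also fell after DOM-A RNAi (−1.37, adjusted p = 3.44e-05) and TIP60 RNAi (−1.24, adjusted p = 0.000112), in which MrgBP was not called. Reads on the opposite strand of MrgBP came to 193 to 277 normalized counts in CTRL, 120 to 142 after H2A.V RNAi, 90.5 to 97.5 after DOM-A RNAi and 104 to 112 after TIP60 RNAi. The counts used here take the strand into account. When the strand was ignored, the log2 fold-change of MrgBP after H2A.V RNAi was −0.90 (adjusted p = 0.00459). Whether the neighbour contributed to the counts of MrgBP was not tested.

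**Figure D3:**
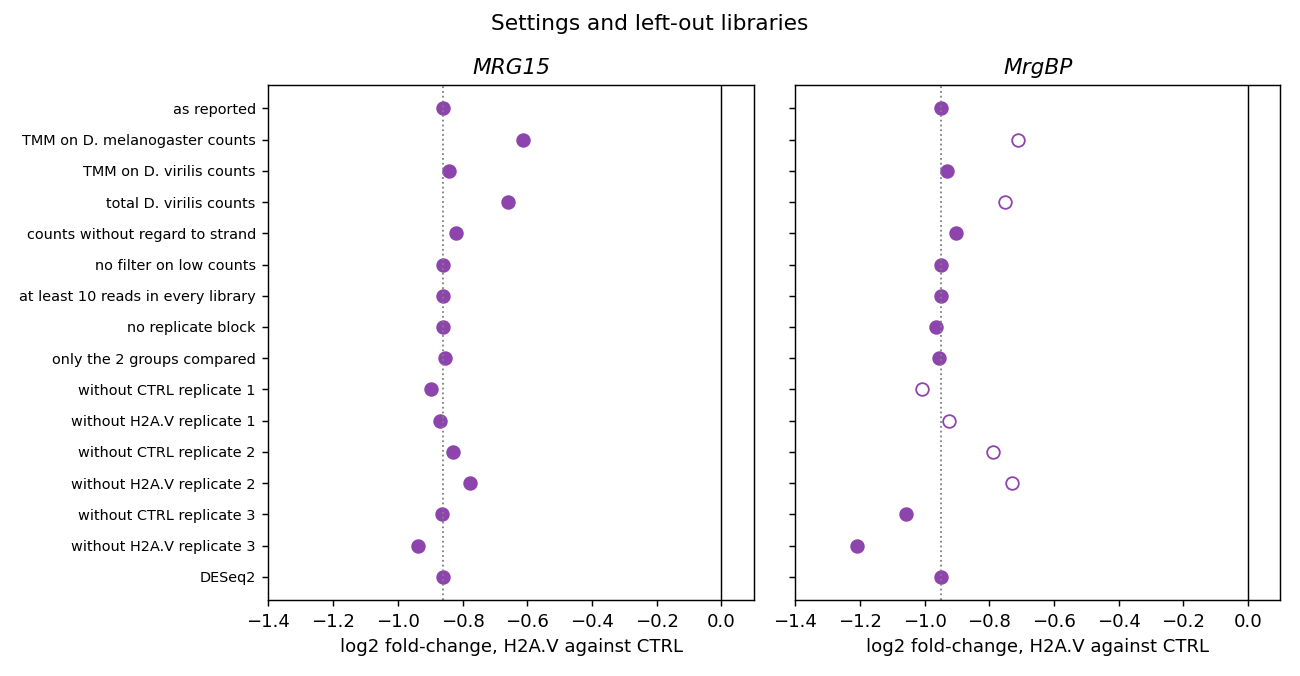
Log2 fold-change of MRG15 and MrgBP after H2A.V RNAi against CTRL as reported and under each other setting or left-out library. Filled points have an adjusted p-value under 0.01, and the dotted line marks the reported value. MRG15 stays filled throughout, between −0.94 and −0.61, whereas MrgBP lies between −1.21 and −0.71 and is open in 6 fits.

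Nipped-A, which is also a subunit of the SAGA acetyltransferase complex, had its highest levels after DOM-A RNAi, but these did not pass the test. It had 4695, 4909 and 3992 normalized counts in CTRL and 6725, 6138 and 5449 after DOM-A RNAi. All 3 DOM-A libraries lay above all CTRL libraries. The log2 fold-change was 0.43 (standard error 0.19, 95% interval 0.02 to 0.85), with an unadjusted p-value of 0.0428 and adjusted p = 0.105, and it did not pass the threshold. After TIP60 RNAi Nipped-A had 6209, 4791 and 5246 counts, after H2A.V RNAi 3599, 3053 and 3979, and after DOM-B RNAi 3241, 5687 and 3362. In the DOM-B group, replicate 2 was far above the other libraries, and the SD was 33.7% of the mean, the largest such share among the members. The groups followed the order DOM-A, TIP60, CTRL, DOM-B and H2A.V, with no difference between neighbours beyond their spread. Between groups further apart, Nipped-A was higher after DOM-A than after H2A.V RNAi by a log2 fold-change of 0.77 (adjusted p = 0.00545), and all DOM-A libraries lay above all H2A.V libraries. This call was kept in 1 of 6 fits with a library left out and in 6 of 9 other settings. Between DOM-A and DOM-B RNAi it differed by 0.58 (adjusted p = 0.0356), which did not pass 0.01. Without DOM-B replicate 2 the difference was 0.91 (adjusted p = 0.00101). The introns of Nipped-A hold many annotated transposable elements, and a diver2 element on the same strand shares 186 nt with its exons. Only reads with a single position in the genome were counted. The part of this overlap in the counts of Nipped-A was not tested.

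E(Pc), the tether of the acetyltransferase module, passed the edgeR test in none of the 10 comparisons. It had 2807, 2750 and 3000 normalized counts in CTRL, 3652, 2888 and 3109 after DOM-A RNAi and 3030, 3160 and 3328 upon DOM-B RNAi. Counts were 3538, 2671 and 3273 after TIP60 RNAi and 2447, 1960 and 2826 after H2A.V RNAi. The DOM-B libraries lay just above CTRL and the remaining groups overlapped with it. The log2 fold-changes against CTRL were 0.17 after DOM-A, 0.16 after DOM-B and 0.14 after TIP60 RNAi. After H2A.V RNAi it was −0.25, which is close to the −0.22 of the median gene. The 95% interval ran from −0.52 to 0.01 for H2A.V RNAi. Relative to H2A.V RNAi, E(Pc) had log2 fold-changes of 0.42, 0.41 and 0.39 after DOM-A, DOM-B and TIP60 RNAi, with adjusted p = 0.0133, 0.0268 and 0.023. In each of these it was called in 1 of 9 other settings (DESeq2, adjusted p = 0.00304, 0.00644 and 0.00677) and in 1 of 6 fits with a library left out. No neighbours in the order DOM-A, DOM-B, TIP60, CTRL and H2A.V differed at 0.01.

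Ing3 and Brd8, the PHD finger and bromodomain subunits, were called by edgeR against H2A.V RNAi but not against CTRL. Ing3 had 325, 320 and 297 normalized counts in CTRL and 275, 254 and 201 after H2A.V RNAi, which did not overlap. Its log2 fold-change of −0.38 had adjusted p = 0.0377 and was not called. After DOM-A RNAi it had 340, 426 and 301 counts, upon DOM-B RNAi 300, 342 and 251, and after TIP60 RNAi 360, 384 and 269, all overlapping with CTRL. Relative to H2A.V RNAi, Ing3 was higher by a log2 fold-change of 0.55 after DOM-A RNAi and by 0.47 after TIP60 RNAi. The adjusted p-values were 0.00278 and 0.00923. The DOM-A libraries did not overlap with the H2A.V libraries, and TIP60 replicate 3 did. The call for DOM-A was kept in 5 of 9 other settings and 4 of 6 fits with a library left out, that for TIP60 in 3 of 9 and 0 of 6.

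Brd8, whose exon overlaps that of CG14507 on the opposite strand over 73 nt, had 379, 342 and 301 normalized counts in CTRL and 306, 216 and 216 after H2A.V RNAi. The log2 fold-change was −0.47 with adjusted p = 0.0195 (0.00656 by DESeq2, which called it), and H2A.V replicate 1 overlapped with CTRL. It had 301, 273 and 262 counts after DOM-B RNAi, all below the lowest CTRL library, though by little in replicate 1. It had 353, 418 and 353 after DOM-A RNAi and 390, 364 and 366 after TIP60 RNAi. The log2 fold-change after DOM-B RNAi was −0.28 (95% interval −0.57 to 0.00) with adjusted p = 0.183. DOM-A and TIP60 libraries thus lay above all DOM-B libraries, by a log2 fold-change of 0.43 for DOM-A (adjusted p = 0.0246), which did not pass 0.01. Relative to H2A.V RNAi, Brd8 was higher by 0.62 after DOM-A RNAi and by 0.61 after TIP60 RNAi, with adjusted p-values of 0.00202 and 0.00284 and no overlap. These calls were kept in 6 and 7 of 9 other settings and in 4 and 2 of 6 fits with a library left out. Both Ing3 and Brd8 had the order DOM-A, TIP60, CTRL, DOM-B and H2A.V, in which no neighbours differed at 0.01.

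Eaf6, the small shared subunit, was the member with the fewest reads. It had 95.8, 99.9 and 110.3 normalized counts in CTRL and 135, 110.4 and 119 after TIP60 RNAi. The TIP60 libraries lay just above those of CTRL, with a log2 fold-change of 0.24 (95% interval −0.13 to 0.61) and adjusted p = 0.339. After DOM-A RNAi it had 138, 99.0 and 104 counts, upon DOM-B RNAi 121, 114 and 98.6, and after H2A.V RNAi 101, 72.9 and 92.4. These groups overlapped with CTRL, and neighbours in the order TIP60, DOM-A, DOM-B, CTRL and H2A.V did not differ at 0.01. The 3' end of Eaf6 overlaps that of mthl2, a gene of the Methuselah receptor family, over 29 nt on the opposite strand. mthl2 had 0 to 4.67 normalized counts in CTRL, 237 to 922 after DOM-A RNAi and 483 to 1061 after TIP60 RNAi. Only reads of the strand of Eaf6 were counted, and the part of mthl2 in the level of Eaf6 was not tested.

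**Figure D4:**
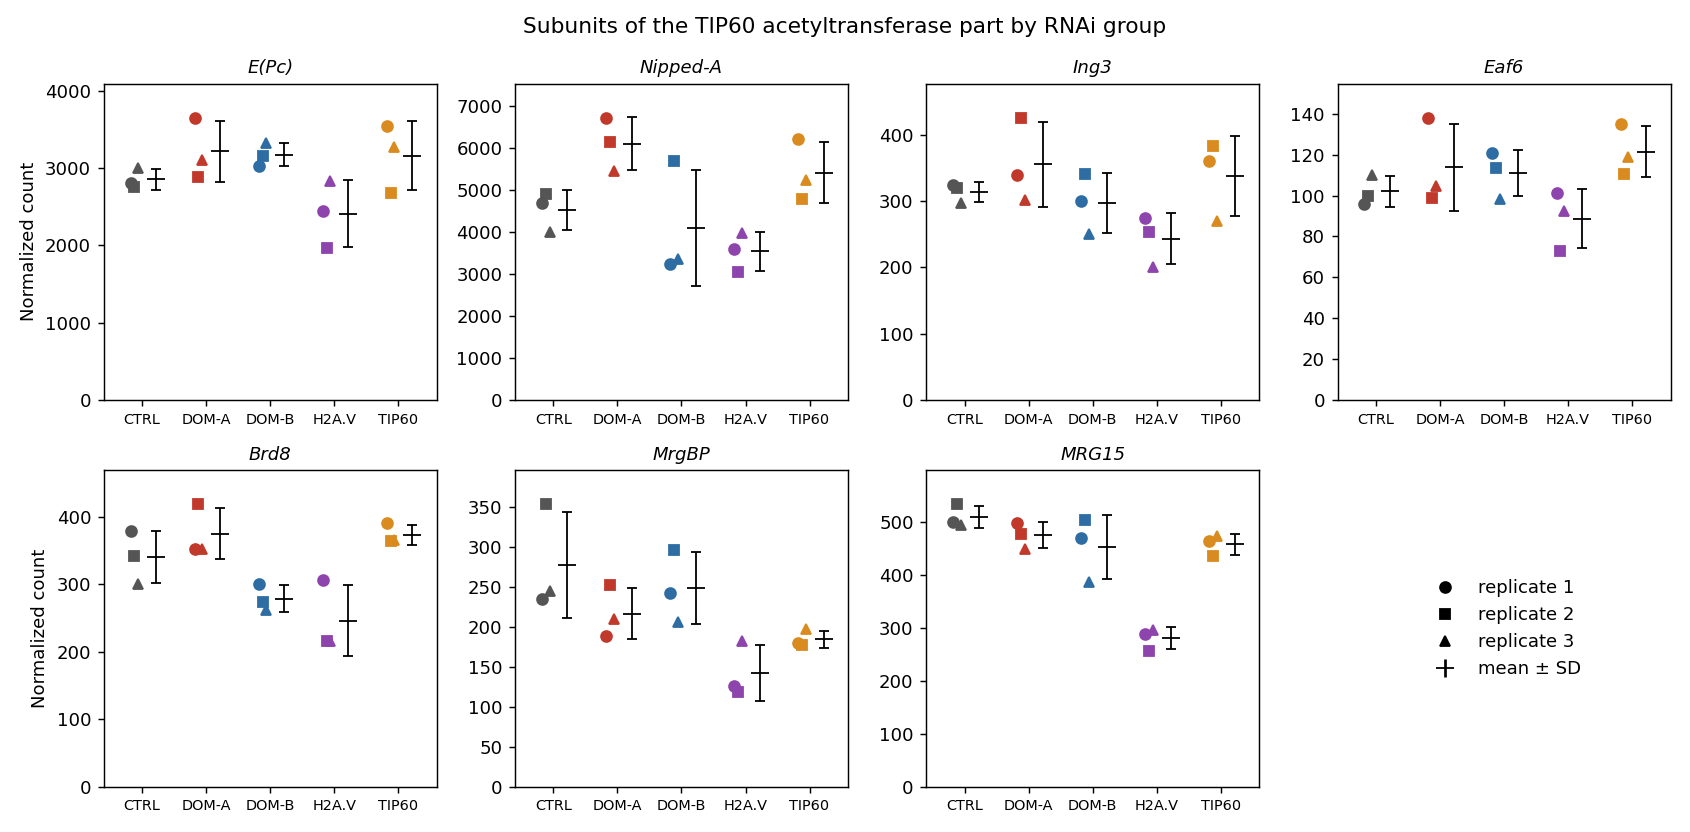
Normalized counts of the 7 subunit genes in the 15 libraries. Symbols mark replicates 1 to 3 and the crossed bars the mean and SD of each group (n = 3), with axes starting at 0. MRG15 after H2A.V RNAi, at 257 to 296, lies apart from all other libraries, whereas the groups overlap in most other panels and Nipped-A after DOM-B RNAi ranges from 3241 to 5687.

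The remaining pairs of knock-downs were compared in the same fit. Between DOM-A and DOM-B RNAi, 0 members were called by edgeR or DESeq2 against a background of 17.4%, with 2 members at an unadjusted p-value under 0.05. Between DOM-A and TIP60 RNAi, which target subunits of the same complex, 0 members were called by either tool, 0 had an unadjusted p-value under 0.05, and 0.0175% of all genes were called. The log2 fold-changes of the members lay between −0.10 and 0.22 there. Between DOM-B and TIP60 RNAi, 0 members were called by either tool against 16.4% of all genes, and 1 had an unadjusted p-value under 0.05. Brd8 had a log2 fold-change of −0.42 in that comparison and adjusted p = 0.0296.

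Against H2A.V RNAi, all 7 members had positive log2 fold-changes in the DOM-A, DOM-B and TIP60 libraries. So had 7261, 8465 and 6862 of the 11424 genes tested, in the same order, and these comparisons share the H2A.V libraries. With TMM normalization on the D. melanogaster counts, Nipped-A and Brd8 had −0.12 and Ing3 −0.03 for DOM-B RNAi. Without DOM-B replicate 2, Nipped-A had −0.13 for DOM-B RNAi. After DOM-A RNAi 4 members were higher (Nipped-A, Ing3, Brd8 and MRG15), with 29.5% of all genes called in either direction and 21.9% called as higher. After TIP60 RNAi 3 were higher (Ing3, Brd8 and MRG15), with 22.8% and 16.6% of all genes. After DOM-B RNAi 1 was higher (MRG15), with 11.0% and 10.2%. MrgBP had log2 fold-changes of 0.60, 0.38 and 0.80 for DOM-A, TIP60 and DOM-B RNAi and was not called. Its adjusted p-values were 0.0251, 0.156 and 0.0107, and only the TIP60 libraries overlapped with those of H2A.V RNAi. For DOM-B RNAi MrgBP was called in 3 of 9 other settings and in 2 of 6 fits with a library left out. The median log2 fold-change of the members was 0.60, 0.47 and 0.33 in these comparisons, against 0.28, 0.19 and 0.30 over all genes tested. Without H2A.V replicate 2, the counts were 1 of 7 for DOM-A, 1 of 7 for TIP60 and 0 of 7 for DOM-B. With total D. virilis counts 0 members, MRG15 included, were called for DOM-A and 0 for TIP60, and with TMM normalization on the D. melanogaster counts 0 for DOM-B. MRG15 was called without that library against DOM-A and TIP60 RNAi.

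The members were set beside other genes of chromatin complexes. Of all genes tested, 19.4% were called after DOM-A, 5.07% after DOM-B, 12.7% after H2A.V and 13.3% after TIP60 RNAi. After H2A.V RNAi 11.5% were called as lower, and the median log2 fold-change over all genes was −0.22. Whether any of these lists differed from all genes was not tested. Of 11 further subunits of the DOM-A and DOM-B complexes, 3 fell after H2A.V RNAi, namely YL-1, Gas41 and DMAP1, with log2 fold-changes of −0.74, −1.01 and −0.55, and the median of the 11 was −0.42. Of the 11, 0 passed the test after DOM-A or DOM-B RNAi (3 and 1 at an unadjusted p-value under 0.05), and YL-1 rose after TIP60 RNAi by 0.43. The SAGA complex shares Nipped-A with the TIP60 complex. Of its 21 other subunits tested, 5 fell after H2A.V RNAi (Sf3b5, Sgf11, Taf6, Taf9 and Taf10b), with a median of −0.41 for the list. After DOM-A RNAi 3 fell (Sf3b5, Taf6 and e(y)2) and Spt7 rose. After DOM-B RNAi Gcn5 rose (0.72) and Taf6 fell (−0.82), and after TIP60 RNAi Sf3b5 fell (−0.82). Of the 3 genes of the ENOK acetyltransferase complex, 0 were called in any knock-down against CTRL, and 1 had an unadjusted p-value under 0.05, after H2A.V RNAi.

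Partners of MRG15 and paralogues of members were set beside the same shares of all genes called. These were 19.4% after DOM-A, 5.07% after DOM-B, 12.7% after H2A.V and 13.3% after TIP60 RNAi. Of 6 partners of MRG15 in other complexes, HDAC1, Set2 and CG3815 (listed as Pf1 among its RefSeq synonyms) fell after DOM-A RNAi, with log2 fold-changes of −0.79, −0.97 and −0.89. After TIP60 RNAi these 3 and ash1 fell, with log2 fold-changes of −0.67, −1.04, −0.92 and −0.58. After H2A.V RNAi only HDAC1 of the 6 passed the test (−0.59), and the median of the 6 was −0.01. Among 3 paralogues of members, CG7379 (listed as Ing1 among its RefSeq synonyms) fell after DOM-A and TIP60 RNAi, with log2 fold-changes of −1.06 and −1.28, whereas Ing3, with a related PHD finger, had log2 fold-changes of 0.17 and 0.09. msl-3, the paralogue of MRG15 in the dosage compensation complex, and Ing5 were not called in any knock-down against CTRL.

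The log2 normalized counts of the members were correlated in pairs across the 15 libraries. All 21 pairs had a positive Pearson correlation, with a median of 0.60. The highest was between E(Pc) and Eaf6 (0.84) and the next between MRG15 and MrgBP (0.81). With values centred within the replicate number, the median was 0.68, and with TMM normalization on the D. melanogaster counts it was 0.38 with 17 positive pairs, of which MRG15 and MrgBP had 0.66. The lowest with that TMM normalization was −0.34, between Eaf6 and MrgBP. All members share the size factor of each library, and the libraries fall into 5 treatment groups. The share of positive pairs among all genes was not computed, so that these correlations are given as a description.

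The genes whose pattern was most like that of each member were sought among 6468 tested genes with a mean of at least 100 normalized counts. For MRG15 they were Kdm4A, a histone demethylase (r = 0.97), and the nucleoporin gene Nup43 (r = 0.97). For MrgBP they were Uev1A (r = 0.94) and RpS15Ab (r = 0.94), for E(Pc) Best1 (r = 0.96) and lace (r = 0.95), and for Nipped-A Chd64 (r = 0.93) and Papst2 (r = 0.92). Ing3 was most like CG13601 (r = 0.94) and CG14562 (r = 0.94), and Brd8 most like CG8067 (r = 0.93) and Fbxo42 (r = 0.93). Eaf6 had the lowest values, with 0.88 for the proteasome gene Rpn12 and 0.87 for ECSIT. Each is a Pearson correlation over 15 libraries, and 0 of these 14 genes are among the members.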

How the data were processed

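Poly(A) RNA of Kc167 cells with added D. virilis cells was sequenced with a directional kit. The authors mapped reads separately to both genomes (STAR 2.5.3a in the submitters' processing notes, release 6 of D. melanogaster), kept reads with a single position and deposited raw counts per gene, for each strand and without regard to it, with no normalization. The counts of the sense strand of this kit were used here. Libraries held 8662976 to 14679536 such reads on D. melanogaster genes and 1766397 to 3037203 on D. virilis genes. Reads that met no gene or several came, per class, to between 1.4% and 5.47% of the reads with a single position and were left out.

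Genes with at least 1 read in 6 libraries were tested (11424 of D. melanogaster, 8941 of D. virilis for scaling). Median-of-ratios size factors from D. virilis were used in edgeR 4.0.16 (quasi-likelihood fit, all 15 libraries, group and replicate number, threshold 0.01) under R 4.3.3. Alternatives were TMM on either species, total D. virilis counts, counts without regard to strand, other filters, no replicate block, only the 2 groups compared, DESeq2 1.42.0, a threshold of 0.05 and leaving out each library. The replicate number is a batch covariate in the study's methods. Same-numbered libraries deviated together (mean correlation 0.218 over 30 pairs, lowest 0.04). Log2 values used a pseudocount of 1.

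Symbols, positions and lengths come from Ensembl's annotation of BDGP6, which is newer than the one used for counting (17343 of 17481 identifiers matched). The text names the members, dom, Tip60, His2Av, called genes of fixed lists and, per member, the 2 genes of highest correlation; overlapping neighbours were named after their values were seen. The members and lists were chosen with earlier results of these data known. Protein and promoter sequences were not used here.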

Additional observations from a re-analysis of the deposited data

Results flagged for a closer look

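Reads on the opposite strand of the members are outside the counts used in the comparisons, and for Eaf6 and Brd8 their normalized counts lay above every CTRL library in some groups. On Eaf6 they were 0 in each CTRL library, which allows up to 3 reads in each, and had a mean normalized count of 6.07 after DOM-A RNAi (2 to 7 reads) and 11.3 after TIP60 RNAi (3 to 18 reads). The neighbour mthl2, which overlaps the 3' end of Eaf6 on that strand, had 237 to 922 and 483 to 1061 normalized counts in these groups and 0 to 4.67 in CTRL. On Brd8 the mean was 2.05 after TIP60 RNAi (1 to 3 reads, normalized 1.35 to 2.83), with 0 to 1 read and at most 1.13 normalized in each CTRL library. The TIP60 library with 1 read thus held as many as 2 of the CTRL libraries. The neighbour CG14507 had 0.99 to 4.72 normalized counts after TIP60 RNAi and 0 to 0.93 in CTRL. The part of these neighbours was not tested.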

How the results depend on the processing

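Over the 7 members in all 10 comparisons, 575 log2 fold-changes kept direction and side of the threshold under other settings and 367 when a library was left out, 24 and 26 lost a call, 10 and 8 gained one, and 21 and 19 turned. For H2A.V against CTRL, 1 member (MRG15) was called with TMM on D. melanogaster counts, 1 with total D. virilis counts, 3 with DESeq2 (Brd8 the third), 4 at a threshold of 0.05, and 1 to 2 with a library left out. Without the replicate block 2 were called, MRG15 at −0.86 and MrgBP at −0.97. The counts were then 3 for DOM-A and 2 for TIP60 against H2A.V, and no other count moved. DOM-A against H2A.V gave 1 (TMM on D. melanogaster counts), 0 (total D. virilis counts), 1 (only the 2 groups compared) and 1 to 6 with a library left out. DOM-B against H2A.V gave 0 (TMM on D. melanogaster counts), 2 (no filter), 2 (at least 10 reads in every library), 0 (only the 2 groups), 3 (DESeq2), 3 (threshold 0.05) and 0 to 3 with a library left out. TIP60 against H2A.V gave 1 (TMM on D. melanogaster counts), 0 (total D. virilis counts), 5 (threshold 0.05) and 1 to 2 with a library left out. TMM on D. melanogaster counts gave 1 for DOM-A against DOM-B and 1 for DOM-B against TIP60. A threshold of 0.05 gave 1 for TIP60 against CTRL, 2 for DOM-A against DOM-B and 1 for DOM-B against TIP60, and leaving out a library gave 0 to 1 in the last pair of comparisons.

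Directions turned for uncalled members only. With total D. virilis counts the log2 fold-changes of DOM-B against CTRL became 0.000 for Nipped-A, 0.061 for Ing3 and 0.001 for MrgBP, those of TIP60 against CTRL −0.013 for E(Pc), −0.068 for Ing3 and −0.013 for Brd8, and those of DOM-A against DOM-B −0.237 for E(Pc), −0.226 for Eaf6 and −0.178 for MRG15. With TMM on D. melanogaster counts, Eaf6 in H2A.V against CTRL became 0.033, and in DOM-A against TIP60 E(Pc) became −0.040, Brd8 −0.050 and MRG15 −0.014. DOM-B against H2A.V then gave −0.125 for Nipped-A, −0.029 for Ing3 and −0.125 for Brd8, and DOM-B against TIP60 −0.108 for E(Pc). In the latter, total D. virilis counts gave 0.129 for Ing3, 0.178 for Eaf6 and 0.284 for MRG15, and counts without regard to strand 0.009 for MRG15. With a library left out, DOM-B against CTRL ran from −0.486 to 0.038 for Nipped-A, −0.172 to 0.002 for Ing3, −0.018 to 0.203 for Eaf6 and −0.252 to 0.020 for MrgBP. DOM-A against DOM-B ran from −0.066 to 0.102 for E(Pc), −0.072 to 0.121 for Eaf6 and −0.036 to 0.166 for MRG15, and DOM-A against TIP60 from −0.054 to 0.105 for E(Pc) and −0.099 to 0.128 for Brd8. DOM-B against H2A.V ran from −0.126 to 0.383 for Nipped-A, and DOM-B against TIP60 from −0.073 to 0.096 for E(Pc) and −0.115 to 0.090 for MRG15. The cause was not tested.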
